A study of Macaca fascicularis with 16 samples.

Results

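Estradiol given alone was set against placebo in the endometrium, the lining of the uterus, of postmenopausal cynomolgus macaques (Macaca fascicularis). The comparison holds the 8 arrays whose titles name estradiol or control, 4 in each group, of 16 in the series. The estradiol group ate a diet with micronized estradiol, 0.25 mg for each 1800 kcal, and the control group ate placebo. Another group, used here in a single test near the end, received tamoxifen at 20 mg for each 1800 kcal, and the group given both drugs entered the statistical fit only. All animals were female and past menopause, were assigned to the groups at random, and were sampled after 4 months of treatment. Ages are not given in the sources used here. The study had as many animals as arrays, 16, so the spread between arrays of a group is taken here to include that between animals.

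RNA was hybridised to Affymetrix expression arrays designed for the rhesus macaque, a close relative. A gene's value is the signal of a probe set, a group of short probes against its transcript, scaled by the submitters so that arrays have the same overall brightness. Changes are given as differences of mean log2(signal + 4.80), estradiol minus control, with the standard error (SE) from limma. On this scale the change of a dim probe set is understated. A gene is called, or said to rise or fall, where its p-value adjusted by the Benjamini-Hochberg method over all 31659 tested probe sets is below 0.05. A gene with several probe sets was followed through the one with the highest mean signal, which left 10705 genes with a single symbol. The number of arrays, 4 in each group, limits the precision.

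Estradiol acts mainly through estrogen receptor alpha, a transcription factor that binds DNA when it holds the hormone. In the endometrium of a cycling primate, the estrogen of the first part of the cycle makes glands and stroma grow, raises the progesterone receptor, and prepares the tissue for progesterone. Much of the growth of the gland epithelium is thought, mainly from work in mice, to be relayed by the stroma through secreted factors such as IGF1. After menopause the ovary no longer makes estradiol in cyclic amounts and the endometrium becomes thin and inactive. The comparison asks what a low dose of the hormone does to such a tissue.

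One array stood apart. In estradiol 4 the summed signal of 7 smooth muscle markers was 2084, against 27629, 28143 and 29926 in the other estradiol arrays and 23153 to 28608 in the controls, so this sample held little muscle RNA. Its mean marker deviation was -3.59 on the log2 scale, while the other 7 arrays lay between 0.062 and 0.45. Counts of genes are therefore also given without estradiol 4 where it moves them by over 1.5 times or away from 0, and so for any other array.

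Markers of other cell types also differed between the groups. The summed signal of 5 epithelium markers was 3984 to 6459 with estradiol and 2988 to 3271 in controls, highest in estradiol 4, and 2 of the 5 were called higher. Of 7 stroma fibroblast markers 5 were called higher, although their summed signal overlapped, at 14582 to 18625 with estradiol and 14203 to 17142 in controls. Of 7 endothelium markers 5 were called lower, with sums of 3247 to 5621 with estradiol and 6031 to 7469 in controls. No marker of T cells and NK cells (4 tested), macrophages (6 tested) or ciliated cells (5 tested) was called, and none of B cells, neutrophils or red cells passed the filter on dim signal. The mast cell marker tested, CPA3, was called lower, at 143, 169, 208 and 16.3 with estradiol and 420, 653, 414 and 246 in controls, lowest in estradiol 4 (3.99-fold lower, SE 0.64 on the log2 scale, adjusted p = 0.0314; adjusted p = 0.0593 to 0.0768 without estradiol 4, control 1, control 2 or control 3, with a log2 change of -1.23 without estradiol 4). Actin probe sets near the 3' and 5' ends of the transcript, whose signals draw apart as RNA breaks down, differed by 0.54, 0.41, 0.50 and 0.83 with estradiol and 1.02, 0.93, 0.96 and 0.76 in controls on the log2 scale, 3' minus 5'. Whether marker levels or this difference have a part in the gene changes below was not tested. In a whole tissue, fewer cells of a type and less RNA per cell cannot be told apart.

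**Figure D1:**
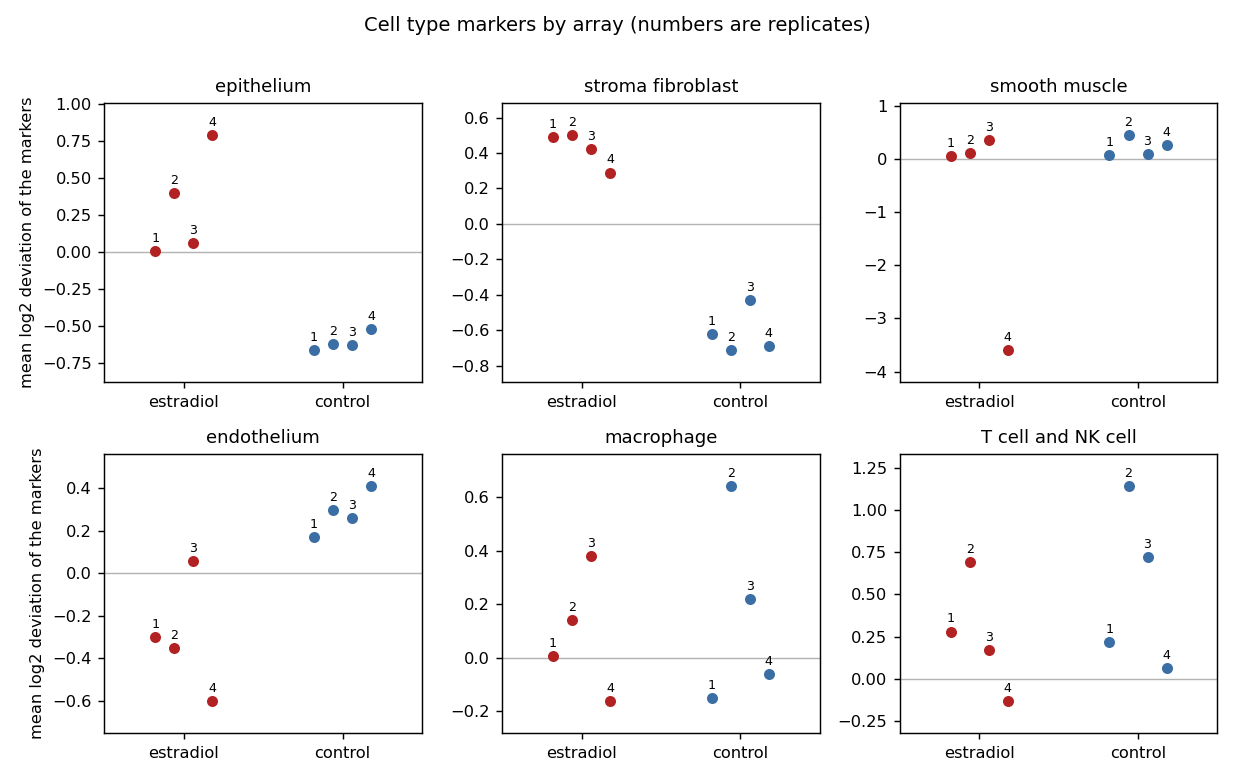
Mean log2 deviation of the tested markers of 6 cell types from their mean over all 16 arrays, for each estradiol array (red) and each control array (blue), with the replicate number beside each point. Epithelium and stroma markers are higher in all 4 estradiol arrays than in all controls, endothelium markers are lower, and estradiol 4 lies far below every other array for smooth muscle.

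The response to estradiol was broad. In all, 8062 of 31659 probe sets passed the test, or 25.5%. Of the 10705 genes, 1766 rose (16.5%) and 1410 fell (13.2%), and the median change of all genes was 0.011, with quartiles of -0.28 and 0.34. The rises were larger: the called genes that rose had a median change of 0.72, and 534 of them were over 2-fold and 93 over 4-fold higher, while those that fell had a median of -0.61, with 250 over 2-fold and 35 over 4-fold lower. All 4 estradiol arrays lay above all 4 controls in 1651 genes, or 15.4% of those tested, and below them in 1393, or 13%. Without estradiol 4 the counts were 1532 genes higher and 1250 lower. Medians of the gene groups described below are of the log2 changes of their tested genes, and stand against this 0.011. Their counts with all arrays stand against the 16.5% of all genes that rose and the 13.2% that fell. Counts given without 1 array come from fits with other totals and do not stand against these shares. In those fits 1349 to 1952 of all genes rose and 1032 to 1477 fell. The fewest rises were without estradiol 2, the fewest falls without estradiol 1, and the most of both without estradiol 3. Without estradiol 4 the shares were 14.3% and 11.7%, and without control 2 they were 15.4% and 11.1%.

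The rise of smallest p was that of SLC25A5, the ADP and ATP carrier of the inner mitochondrial membrane. Its signals were 3196, 3234, 2196 and 3106 in estradiol 1 to 4, against 983, 1078, 1073 and 985 in control 1 to 4, a 2.81-fold difference (log2 change 1.49, SE 0.11, adjusted p = 6.29e-06). Even the lowest estradiol array was over every control by a wide margin. The transcription factor gene AFF3 had signals of 967, 702, 716 and 610 with estradiol and 222, 152, 154 and 206 in controls (log2 change 2.00, SE 0.17, adjusted p = 9.36e-06), and its other 2 tested probe sets rose too, by 2.06 and 1.48. CKS2, which encodes a small subunit of the cyclin-dependent kinases of dividing cells, changed most among the 10 rises of smallest p. It stood at 1934, 1245, 1116 and 1636 with estradiol and at 130, 230, 200 and 121 in controls, a rise of 8.6-fold (log2 change 3.10, SE 0.28, adjusted p = 1.56e-05). The others of these 10 were COL15A1 (1.35, with its dimmer probe set at -0.092), PDIA6 (1.23), HIGD1A (0.85), C6H5orf15 (1.25), COL1A2 (1.68), GDE1 (1.25) and LOXL2 (2.33). Among them are genes of matrix, protein folding, mitochondria and lipid signalling, several of which return below.

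The 10 falls of smallest p lay between -0.65 and -1.67. GPRASP1, whose protein sorts receptors to the lysosome, had 784, 987, 1278 and 914 with estradiol and 2783, 2851, 2292 and 2623 in controls (log2 change -1.43, SE 0.13, adjusted p = 1.56e-05). BCL2L11, which encodes the death-promoting protein BIM, had 353, 447, 434 and 466 with estradiol and 1237, 1071, 977 and 850 in controls (log2 change -1.27, SE 0.13, adjusted p = 3.68e-05), so every estradiol array lay below every control. Its other probe sets stood at -0.91 and 0.13. Chromatin regulators were among the rest: PHF1, a partner of the Polycomb complex, changed by -1.31, RCOR3, a corepressor, by -1.03, and JADE2, part of a histone acetyltransferase complex, by -1.15. PTCHD1 (-1.67), ABTB1 (-1.55), ANKZF1 (-0.74), TXLNG (-0.82) and PHIP (-0.65) made up the 10.

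Genes known to be induced by estrogen rose as a group without exception among the called. Of 19 tested, 13 rose, 0 fell and 6 did not pass, with a median change of 0.80 against 0.011 over all genes; the list comes from textbook knowledge, but was written with results of these data known. PGR, the progesterone receptor gene and a standard estrogen target, had signals of 1399, 1302, 1527 and 1796 with estradiol and 600, 373, 809 and 831 in controls, a 2.39-fold rise (log2 change 1.26, SE 0.22, adjusted p = 0.00115). All 4 estradiol arrays were above all controls, of which control 2 was lowest. GREB1, a cofactor of the estrogen receptor that is itself its target, had 1406, 833, 1579 and 1199 with estradiol against 547, 708, 484 and 622 in controls (log2 change 1.06, SE 0.29, adjusted p = 0.0141), with estradiol 2 nearest the controls. MYB, a proto-oncogene with an estrogen-responsive transcription block in breast cancer cells, stood at 264, 523, 225 and 308 with estradiol and 69.8, 83.2, 81.2 and 82.2 in controls (log2 change 1.92, SE 0.31, adjusted p = 0.000605). MYC had 1179, 983, 1146 and 673 with estradiol and 687, 392, 376 and 456 in controls (log2 change 1.06, SE 0.20, adjusted p = 0.00172); here estradiol 4 lay below control 1, so the groups overlapped. TFF3, a mucosal peptide counted among estrogen targets in breast cells, did not pass and its groups overlapped, at 63.7, 60.8, 40.8 and 14.7 with estradiol and 46.9, 49.1, 36.4 and 28.1 in controls (log2 change 0.021, SE 0.36, adjusted p = 0.976).

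The receptors themselves moved less. ESR1, which encodes estrogen receptor alpha, had signals of 495, 626, 568 and 466 with estradiol and 325, 242, 442 and 515 in controls and did not pass (log2 change 0.54, SE 0.21, adjusted p = 0.0691). Control 4 lay among the estradiol arrays, and without it ESR1 passed (adjusted p = 0.0248 without control 4). ESR2, the receptor beta gene, was dim, at 59.6, 53.3, 75.6 and 23.7 with estradiol and 61, 59.7, 64.9 and 81.6 in controls, and did not pass (log2 change -0.39, SE 0.33, adjusted p = 0.423), as the groups overlapped. Of 19 nuclear receptor genes 3 rose and 2 fell, or 15.8% and 10.5%, near the 16.5% and 13.2% of all genes (median -0.20). Beside PGR, the glucocorticoid receptor gene NR3C1 rose by 0.50, with its other probe sets at -0.32 and 0.12. NR2F1 rose by 0.41 (adjusted p = 0.0502 to 0.0744 without estradiol 1, estradiol 4, control 1, control 2 or control 3). NR1D1, the clock repressor REV-ERB alpha, and RXRB, a shared partner of many receptors, changed by -1.58 and -0.34. RXRB did not pass limma's test with only the 8 arrays (adjusted p = 0.0558). With the mean of its probe sets RXRB changed by -0.27 and did not pass either (adjusted p = 0.111).

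Of 17 coregulators and chaperones of the receptors, 3 rose and 4 fell (median -0.054). NRIP1, a corepressor that estrogen induces and that damps the receptor's activity, had 2251, 2712, 1958 and 2983 with estradiol and 1187, 1441, 1089 and 1138 in controls (log2 change 1.02, SE 0.21, adjusted p = 0.0026), and both of its other probe sets rose, by 1.57 and 1.72. FKBP4, the immunophilin that the progesterone receptor needs in the mouse uterus, rose by 0.61. The acetyltransferase genes EP300 and CREBBP changed by -0.35 and -0.39, and the p160 coactivator gene NCOA2 by -0.50. Of the dimmer probe sets of EP300, which stood at -0.12, -0.19, -0.061, 0.19 and -1.58, the last was also called, and that of CREBBP was at -0.029.

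The growth factor genes of the stroma and their receptors changed in both directions. IGF1, the stromal growth factor named above, had signals of 8403, 9217, 6074 and 8440 with estradiol and 2521, 3657, 3291 and 3969 in controls, 2.39-fold higher (log2 change 1.26, SE 0.18, adjusted p = 0.000216), and its 3 other probe sets rose by 1.63, 2.21 and 2.01. IGFBP2, one of the proteins that bind and hold IGF1, rose more, with 3470, 3537, 3098 and 2191 with estradiol against 1115, 937, 1141 and 867 in controls (log2 change 1.58, SE 0.15, adjusted p = 1.81e-05). The binding protein gene IGFBP3, by contrast, had 3484, 2383, 5210 and 1590 with estradiol and 6771, 9354, 6812 and 8002 in controls (log2 change -1.41, SE 0.33, adjusted p = 0.00591), and estradiol 4 was lowest. IRS2, the insulin receptor substrate, fell to 514, 616, 1166 and 983 with estradiol, against 2284, 2744, 2341 and 2026 in controls (log2 change -1.58, SE 0.20, adjusted p = 0.000127). GRB10, which restrains insulin and IGF receptors, and PIK3IP1, an inhibitor of PI3 kinase, changed by -0.75 and -1.65. Of the 17 genes of this axis 4 rose (2 without estradiol 1) and 5 fell (median -0.052).

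The epidermal growth factor receptor gene EGFR had 453, 484, 527 and 554 with estradiol and 96.4, 125, 155 and 189 in controls, 3.58-fold higher (log2 change 1.84, SE 0.19, adjusted p = 3.73e-05). Its lowest estradiol array was over 2-fold above its highest control. Of the 7 members of this family tested, 3 rose and 0 fell (median 0.55), the ligand gene BTC by 0.86 and the receptor gene ERBB2 by 0.40 (adjusted p = 0.0663 to 0.0944 without estradiol 2, estradiol 3, control 1, control 3 or control 4).

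Hedgehog signalling from epithelium to stroma is a known relay of steroid hormones in the mouse uterus. Its ligand gene IHH had signals of 848, 1368, 665 and 1380 with estradiol and 192, 179, 377 and 142 in controls, 4.81-fold higher (log2 change 2.27, SE 0.30, adjusted p = 0.000172), and its second probe set rose by 1.50. The receptor and target gene PTCH1 had 114, 120, 80.9 and 210 with estradiol against 36.7, 40.3, 82.8 and 49.4 in controls, with the groups overlapping at control 3 (log2 change 1.23, SE 0.37, adjusted p = 0.0245; adjusted p = 0.05 to 0.075 without estradiol 2, estradiol 4, control 1 or control 2). In all 4 of 10 genes of the pathway rose and 0 fell (median 0.26), but IHH alone passed without estradiol 2, without estradiol 4 and without control 2, and 2 genes passed without control 1. HHIP and GLI1, the other called genes, changed by 1.04 (adjusted p = 0.0532 to 0.101 without estradiol 1, estradiol 2, estradiol 4, control 1 or control 2) and 0.56 (adjusted p = 0.0795 to 0.148 without estradiol 2, estradiol 4, control 1, control 2 or control 4). WNT5A, a stromal ligand of the WNT family, had 2261, 1493, 1394 and 2692 with estradiol and 632, 459, 714 and 405 in controls (log2 change 1.80, SE 0.24, adjusted p = 0.000151), and the secreted antagonist gene SFRP4 had 10498, 9624, 8005 and 10312 with estradiol and 4306, 3083, 4826 and 2406 in controls (log2 change 1.44, SE 0.26, adjusted p = 0.00132). WNT receptors diverged: FZD1 rose by 0.93 and FZD4 fell by 1.29. Over the 33 WNT genes tested 6 rose and 5 fell (3 without estradiol 1, estradiol 2, control 1 or control 4), with a median of 0.25. These shares, 18.2% and 15.2%, were near the 16.5% and 13.2% of all genes.

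In the TGF beta and BMP pathway 4 of 23 genes rose and 5 fell (2 without estradiol 1, 3 without control 2, control 3 or control 4), with a median of -0.20. The 17.4% that rose was near the 16.5% of all genes, and 21.7% fell, against 13.2%. The BMP receptor gene BMPR1B rose by 1.49 and its downstream target ID1 by 0.98, while TGFBR3, the coreceptor betaglycan, fell by 1.24 and the latent TGF beta binding protein gene LTBP2 by 0.94. TGFBR3 had signals of 2675, 2677, 3176 and 1377 with estradiol and 5001, 6758, 5092 and 5689 in controls, and its 2 other probe sets fell by a like amount, at -1.18 and -1.25. In the Notch pathway, the target genes HEY1, HEY2 and HEYL rose by 1.52, 1.22 and 0.90. HEY1 stood at 873, 946, 799 and 1508 with estradiol and 364, 296, 407 and 321 in controls. Over the 14 Notch genes 4 rose and 3 fell (1 without control 3), with a median of 0.11. The shares were 28.6% and 21.4%, against 16.5% and 13.2% of all genes. The 3 that fell were RBPJ, MFNG and the receptor gene NOTCH4.

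**Figure D2:**
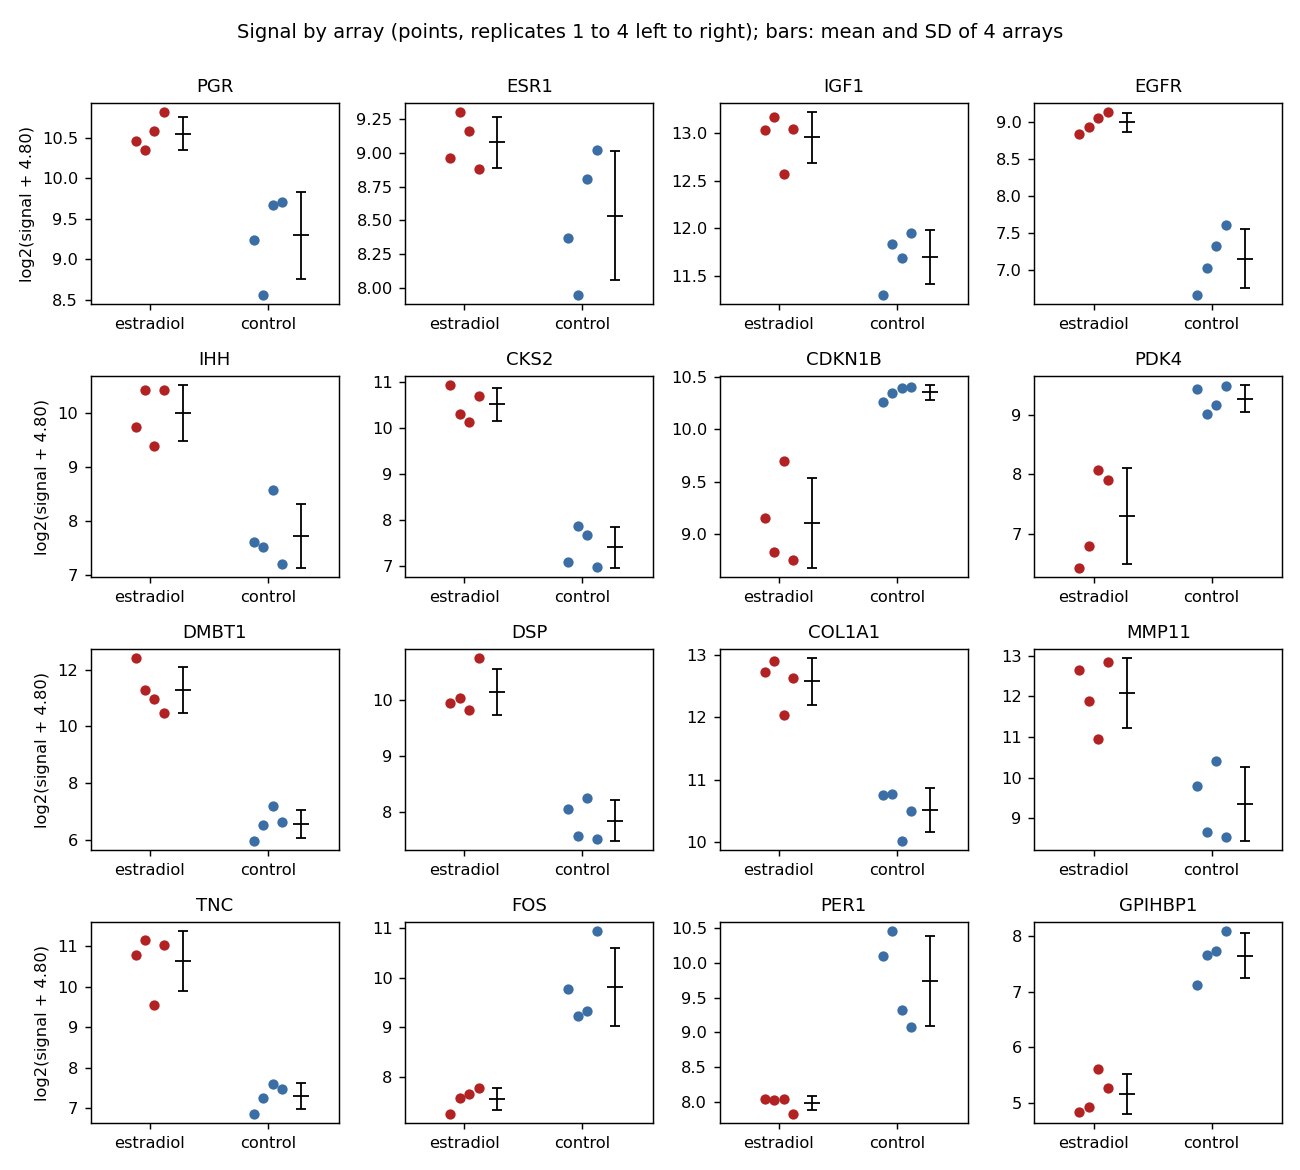
Signals of 16 genes on a log2 scale, with a point for each array (estradiol red, control blue) and the mean and SD of the 4 arrays of a group beside them; each panel has its own axis, which does not start at 0. The groups do not overlap except for ESR1, where control 4 lies among the estradiol arrays.

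Many cell division genes rose, though their number depends on the filter on dim probe sets. Of 32 genes of mitosis and the spindle 18 rose and 1 fell, with a median change of 0.92; that fall was PTTG1, the securin gene, at -0.95 (adjusted p = 0.0716 and 0.0629 without estradiol 2 or control 1), whose other probe sets were at 1.72, 1.90 and -1.16, the first 2 of them called higher. Many mitosis genes are dim, and with the dimmest 60% of probe sets left out 16 were tested, of which 5 were called higher. The control means of KIF4A, FOXM1, CCNB2 and KIF23, at 4.56, 4.57, 4.64 and 5.22 on the log2 scale, lay under the filter's cut of 5.36. Such genes were tested because arrays of other groups were brighter, so which genes are counted depends in part on the rise itself. KIF4A, a chromosome motor, had signals of 142, 138, 58.6 and 129 with estradiol and 14.8, 25.7, 18.8 and 17 in controls, 4.9-fold higher (log2 change 2.29, SE 0.29, adjusted p = 0.000107). The spindle gene CKAP2 had 356, 403, 172 and 339 with estradiol against 45.2, 47.6, 42.7 and 34.2 in controls (log2 change 2.71, SE 0.36, adjusted p = 0.000145). FOXM1, the transcription factor that switches on the genes of mitosis, had 188, 151, 61.2 and 164 with estradiol and 15.9, 31.9, 10.2 and 23.4 in controls (log2 change 2.51, SE 0.37, adjusted p = 0.000339). In these 3 genes estradiol 3 was the lowest of its group, and it was still above every control. MKI67, the gene of Ki-67, a nuclear protein of cycling cells, followed with 167, 143, 70.2 and 161 with estradiol against 31, 39.2, 48.2 and 54.1 in controls (log2 change 1.50, SE 0.28, adjusted p = 0.00156), again lowest in estradiol 3. Cyclin B2 (CCNB2) rose by 3.09 and the motor gene KIF23 by 1.97. Of 15 centromere and kinetochore genes 7 rose (4 without estradiol 1, estradiol 2, control 2 or control 4, 3 without estradiol 4) and 1 fell (0 without estradiol 1, estradiol 2, control 1 or control 2; median 0.56); ZWINT, a kinetochore scaffold, had 593, 370, 137 and 308 with estradiol and 32.3, 22.4, 19.1 and 21.8 in controls, 11.2-fold higher (log2 change 3.48, SE 0.44, adjusted p = 0.00012).

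Genes of the preceding steps of the cell cycle rose in part. In G1, the phase in which a cell commits to divide, 8 of 19 genes rose and 4 fell (2 without estradiol 4; median 0.064). The activator gene E2F2 rose by 1.05, and the cyclin E genes CCNE1 and CCNE2 by 1.24 and 1.08. CDKN1B, which encodes the inhibitor p27 of quiescent cells, fell to 563, 450, 825 and 424 with estradiol, against 1220, 1296, 1347 and 1354 in controls (log2 change -1.25, SE 0.16, adjusted p = 0.00014). Controls were tightly grouped, and estradiol 3 was closest to them. In DNA replication 10 of 25 genes rose (6 without estradiol 1) and 2 fell (1 without estradiol 1, estradiol 2, control 1 or control 3; median 0.32). The helicase gene MCM2 had 931, 795, 575 and 714 with estradiol against 377, 424, 338 and 346 in controls (log2 change 1.00, SE 0.14, adjusted p = 0.000265), and MCM10, which helps to start replication forks, rose by 1.54. POLE2, a polymerase subunit gene, fell by 0.44 through a bright probe set, while its other one was at 0.42.

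Nucleotide supply rose in 9 of 20 genes and fell in 0 (1 without estradiol 3; median 0.30), with the thymidylate synthase gene TYMS at 1.85 and the purine enzyme gene ATIC at 0.61. Of 24 genes that copy or mark chromatin 10 rose and 3 fell (median 0.23). The histone chaperone gene NASP rose by 0.62 and the methyltransferase gene SUV39H2 by 1.13. DNMT1, which copies DNA methylation after replication, went the other way, with 243, 233, 366 and 135 with estradiol and 678, 708, 661 and 689 in controls (log2 change -1.55, SE 0.25, adjusted p = 0.000536); it was followed through a single probe set. Apoptosis genes were mixed, 7 of 22 higher (4 without estradiol 4) and 3 lower (median -0.014). BAX, a pore-forming death protein, rose by 0.81 and PMAIP1, a trigger of that pathway, by 1.76, while BCL2L11 fell as described above.

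**Figure D3:**
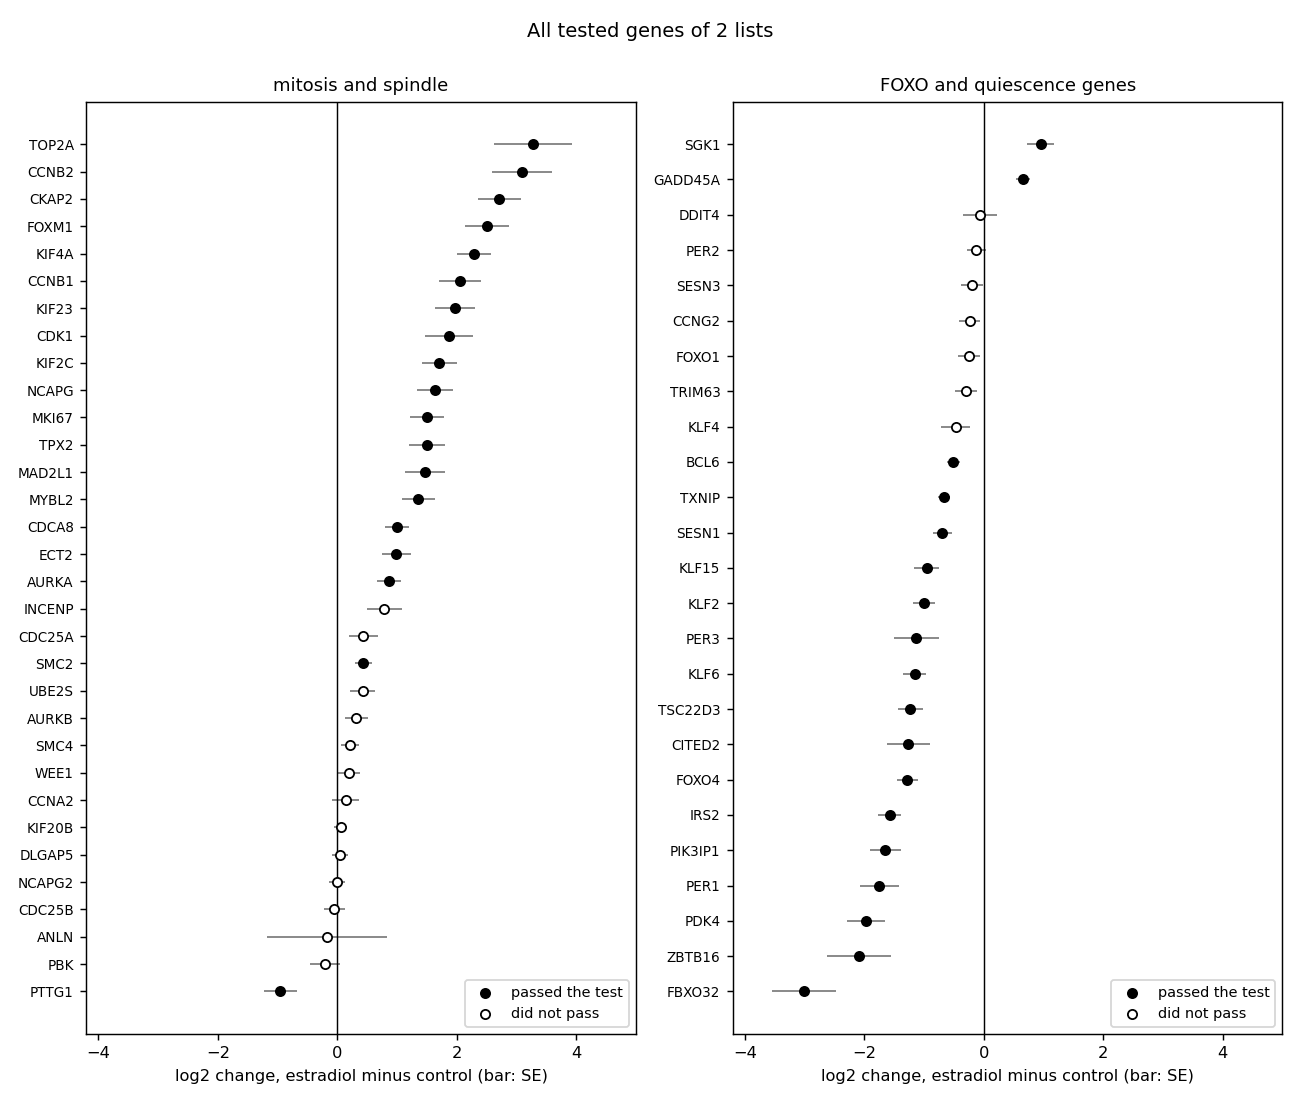
Change of every tested gene of the mitosis list (left) and of the FOXO and quiescence list (right), estradiol minus control on the log2 scale with its SE; filled points passed the test. Most mitosis genes lie to the right of 0, with PTTG1 as the called gene to the left, and most quiescence genes lie to the left, with SGK1 and GADD45A as the called genes to the right.

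The machinery that makes, folds and ships proteins rose along with division. Of 11 aminoacyl-tRNA synthetase genes, which charge tRNAs with amino acids, 9 rose and 0 fell (median 0.58). VARS1, the valine enzyme, had signals of 225, 239, 190 and 219 with estradiol and 147, 133, 121 and 136 in controls (log2 change 0.68, SE 0.11, adjusted p = 0.000688), a modest but even rise. Ribosome making rose in 13 of 40 genes (8 without estradiol 1) and fell in 3 (1 without estradiol 1, estradiol 3, control 1, control 2 or control 3, 0 without estradiol 2; median 0.27). NHP2, a core protein of the particles that modify ribosomal RNA, had 2412, 2320, 2123 and 1954 with estradiol against 998, 1133, 892 and 954 in controls (log2 change 1.14, SE 0.14, adjusted p = 0.000115), and its partner gene GAR1 rose by 0.75. In amino acid supply 7 of 21 genes rose and 4 fell (median 0.31). Both proline synthesis genes ALDH18A1 and PYCR1 rose, by 0.91 and 1.09, and SLC7A11, the cystine importer, by 1.94.

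Entry into the endoplasmic reticulum (ER) and export to the Golgi rose in 20 of 37 genes and fell in 1 (0 without estradiol 2, estradiol 4, control 1, control 2 or control 3; median 0.36). KDELR3, a receptor that returns resident proteins to the ER, had 2264, 1542, 1068 and 1386 with estradiol and 404, 461, 464 and 444 in controls, 3.38-fold higher (log2 change 1.76, SE 0.17, adjusted p = 1.81e-05). SSR3, a subunit of the translocon-associated complex, had 3629, 3448, 2954 and 3100 with estradiol against 1335, 1637, 1690 and 1014 in controls (log2 change 1.23, SE 0.14, adjusted p = 6.89e-05). CREB3L1, a transcription factor that drives secretory genes and collagen, rose by 1.20. Protein folding in the ER rose in 13 of 31 genes and fell in 4 (median 0.34). The disulfide isomerase gene PDIA6 had 3527, 3144, 2550 and 2735 with estradiol and 1251, 1423, 1221 and 1171 in controls (log2 change 1.23, SE 0.11, adjusted p = 1.11e-05), and the chaperone gene DNAJB11 rose by 1.03. The 4 that fell were DDIT3 (CHOP), a death factor of ER stress, at -0.96, HERPUD1 and EDEM1, which act in the disposal of misfolded proteins, at -0.52 and -0.48, and the oxidase gene ERO1B at -0.49 (adjusted p = 0.0548 to 0.0977 without estradiol 1, estradiol 2, control 3 or control 4). N-glycan genes rose in 19 of 46 and fell in 3 (1 without estradiol 1; median 0.24), RPN2 of the oligosaccharyl transferase by 0.80.

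The proteasome, which breaks down tagged proteins, rose in 18 of 24 genes and fell in 0, and all 24 had a change above 0 (median 0.38). The changes were small: PSMB5, a catalytic subunit, had 1885, 1710, 1527 and 1742 with estradiol and 1067, 1233, 1077 and 860 in controls (log2 change 0.70, SE 0.11, adjusted p = 0.00041). Glycolysis rose in 11 of 21 genes and fell in 2 (1 without estradiol 1, estradiol 4, control 1, control 2 or control 3; median 0.39). GAPDH, often taken as a control gene, had 3481, 3087, 2586 and 2073 with estradiol and 1160, 1145, 993 and 1103 in controls, 2.5-fold higher (log2 change 1.32, SE 0.15, adjusted p = 4.82e-05). HK2, the hexokinase that traps glucose in growing cells, rose by 2.27. Complex I and IV subunits rose in 14 of 34 and fell in 0 (median 0.30), NDUFB6 by 0.76. Of 25 genes of the citric acid cycle and fatty acid oxidation 7 rose (4 without estradiol 2) and 0 fell (1 without estradiol 4; median 0.18). In cholesterol synthesis 7 of 15 rose (4 without estradiol 1, control 1 or control 4) and 0 fell (median 0.44), CYP51A1, a sterol demethylase, by 1.27. With all arrays 5 of 26 chaperonin and heat shock genes were higher, near the background of 16.5%, with a median of 0.16. A further 2 were lower (0 without estradiol 1, estradiol 4, control 1 or control 2, 1 without control 4). Without estradiol 4, 7 of 26 were higher, against 14.3% of all genes. Without both estradiol 4 and control 2, 9 of 26 were higher, against 13.8% of all genes.

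**Figure D4:**
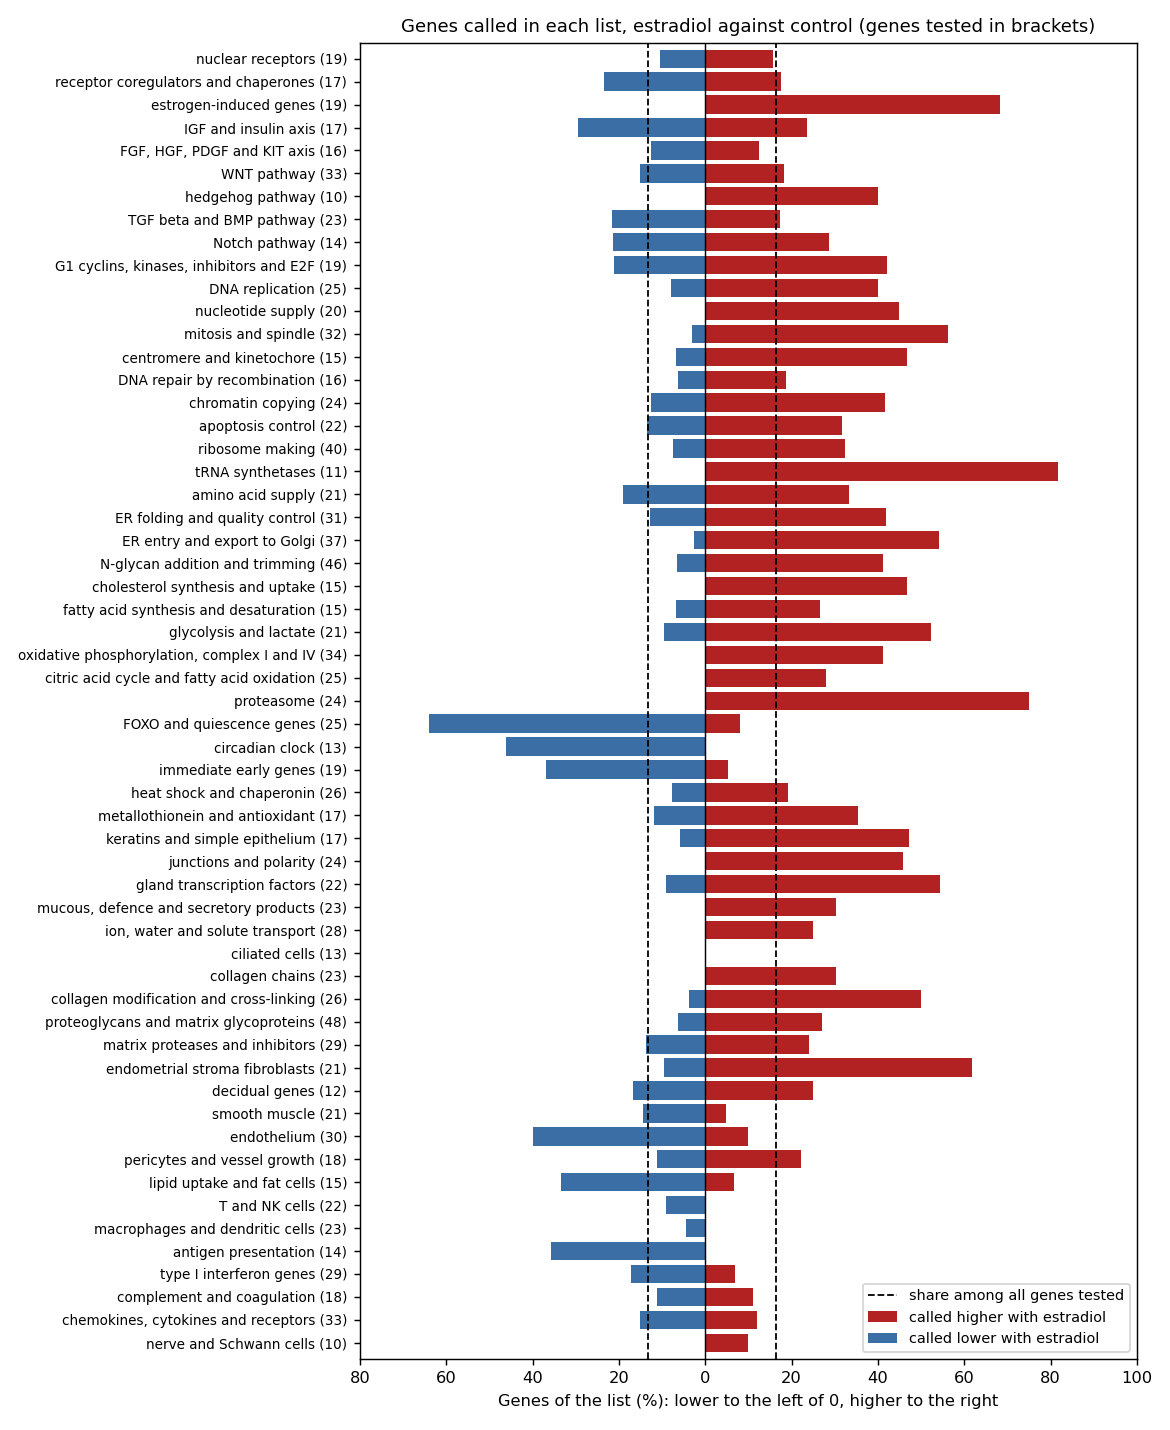
Share of the tested genes of each list called higher (red, to the right) or lower (blue, to the left) with estradiol, for the lists with 10 or more tested genes; dashed lines mark the shares over all genes, 16.5% higher and 13.2% lower. Bars for tRNA synthetases, the proteasome and estrogen-induced genes reach farthest right, and those for FOXO and quiescence genes and the circadian clock farthest left.

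Genes of a list for resting cells mostly fell. Like the other lists, it was written with results of these data known. The FOXO factors are switched off by growth signals, and their targets slow growth and spare nutrients. Of 25 FOXO and quiescence genes 16 fell and 2 rose, with a median change of -0.96. PDK4, a kinase that blocks the use of glucose carbon, fell to 81.8, 107, 266 and 234 with estradiol, against 685, 510, 568 and 709 in controls (log2 change -1.97, SE 0.32, adjusted p = 0.000566). FOXO4 itself had 105, 112, 177 and 137 with estradiol and 321, 357, 334 and 283 in controls (log2 change -1.28, SE 0.18, adjusted p = 0.000221). TXNIP, which curbs glucose uptake, was 7216, 7109, 8438 and 6300 with estradiol against 10252, 12902, 11277 and 11701 in controls, and its 4 other probe sets fell as well, by -0.68, -0.94, -0.89 and -0.81 as signed changes (log2 change -0.67, SE 0.096, adjusted p = 0.000258). FBXO32, a ubiquitin ligase of muscle wasting, was called lower through all of its 5 probe sets and fell by 3.01 through the brightest (log2 change -3.65 without estradiol 3), with 395, 241, 1345 and 113 with estradiol and 2835, 3124, 2742 and 2656 in controls. Estradiol 3 was the highest of its group in all 4 of these genes. The 2 that rose were SGK1, an ion transport kinase, at 0.95, and GADD45A, a damage and stress gene, at 0.65, with its other probe sets at 1.02 and -0.97.

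Circadian clock genes fell in 6 of 13 and rose in 0 (median -0.49). PER1, a repressor of the clock, fell to 258, 256, 259 and 223 with estradiol, against 1090, 1399, 637 and 534 in controls (log2 change -1.75, SE 0.33, adjusted p = 0.00155). The estradiol arrays were nearly equal and the controls spread more than 2-fold. NR1D1 had 104, 131, 69.2 and 71.5 with estradiol and 329, 424, 261 and 169 in controls (log2 change -1.58, SE 0.36, adjusted p = 0.00518), and CRY2, another repressor, fell by 0.49. The times of day at which the animals were sampled are not given in the sources used here. Immediate early genes, which respond within minutes to stimuli and to handling of tissue, fell in 7 of 19 and rose in 1, MYC (median -0.51). FOS had 147, 184, 195 and 212 with estradiol and 868, 596, 633 and 1957 in controls (log2 change -2.26, SE 0.31, adjusted p = 0.00019), highest in control 4, and DUSP1, a phosphatase that ends such signals, had 1246, 1644, 1442 and 1277 with estradiol and 2586, 3036, 3463 and 3878 in controls (log2 change -1.20, SE 0.16, adjusted p = 0.000189). KLF2 and KLF6 fell by 1.00 and 1.16.

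Many epithelial genes rose, with products of junctions, glands and mucus among them; the rise of the epithelium markers given above moves with them, and its part in these changes was not tested. Keratin and simple epithelium genes rose in 8 of 17 and fell in 1 (2 without control 3), with a median of 1.19. KRT8, a keratin of simple epithelia, had signals of 277, 267, 213 and 593 with estradiol and 45.7, 81.1, 48.6 and 121 in controls (log2 change 2.10, SE 0.40, adjusted p = 0.00171), highest in estradiol 4. CDH3, or P-cadherin, was the one that fell, with 178, 173, 128 and 33.9 with estradiol against 811, 535, 363 and 447 in controls (log2 change -2.19, SE 0.40, adjusted p = 0.00128). Junction and polarity genes rose in 11 of 24 (6 without estradiol 4) and fell in 0 (1 without estradiol 3; median 0.78). DSP, the desmosome protein desmoplakin, had 975, 1046, 898 and 1705 with estradiol and 258, 185, 300 and 177 in controls, 4.89-fold higher (log2 change 2.29, SE 0.33, adjusted p = 0.000249), and CLDN10, a claudin of tight junctions, rose by 1.76.

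Transcription factors of uterine glands and their development rose in 12 of 22 genes and fell in 2 (median 0.72). MECOM had 1605, 2239, 1477 and 3721 with estradiol and 618, 502, 661 and 663 in controls (log2 change 1.79, SE 0.31, adjusted p = 0.000876), and SOX17, which gland formation needs in mice, had 2128, 3008, 1555 and 3856 with estradiol and 818, 641, 867 and 586 in controls (log2 change 1.79, SE 0.32, adjusted p = 0.00128). Both were highest in estradiol 4 and lowest of their group in estradiol 3, above all controls. MSX2 rose by 2.10 and EHF by 1.56. The 2 that fell were the homeobox genes HOXA13, at -2.47, and HOXC6, at -1.54, whereas their relative HOXA11, a gene of uterine stroma, rose by 0.76.

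Of 23 genes of mucus, defence and secretion 7 rose (4 without estradiol 2) and 0 fell (median 0.29). DMBT1, a glycoprotein of mucosal surfaces, had signals of 5382, 2487, 1976 and 1427 with estradiol and 58.3, 87.5, 141 and 94.5 in controls, a 25.9-fold rise (log2 change 4.70, SE 0.46, adjusted p = 2.25e-05), and its second probe set changed by 5.33. The groups were far apart, and estradiol 4, the array with the most epithelium marker signal, was the lowest of its group. AGR2, an ER protein needed for mucin making in mice, had 3318, 3549, 2125 and 3886 with estradiol and 388, 413, 650 and 557 in controls (log2 change 2.67, SE 0.31, adjusted p = 6.66e-05), and its neighbour in the family, AGR3, rose by 2.07. GCNT3, which branches mucin sugars, rose by 2.76. In transport 7 of 28 genes rose and 0 fell (median 0.43), ATP1B1, a subunit of the sodium pump, by 1.30 and the zinc importer gene SLC39A4 by 1.23. Of 13 ciliated cell genes none was called by limma in either direction (1 lower without estradiol 2; median 0.017), and 1 had an unadjusted p below 0.05. Among the arrays, estradiol 2 had the highest summed signal of the 5 ciliated markers, 941, against 169 to 217 in the other estradiol arrays and 216 to 426 in controls.

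Some genes of the matrix that stroma cells lay down rose by large amounts, while most members of the lists of collagen chains and matrix glycoproteins did not pass. COL1A1 and COL1A2 encode the chains of type I collagen. COL1A1 had signals of 6751, 7613, 4209 and 6357 with estradiol and 1724, 1746, 1036 and 1451 in controls, 4.16-fold higher (log2 change 2.06, SE 0.24, adjusted p = 6.26e-05), and COL1A2 had 13397, 12891, 9709 and 13105 with estradiol and 4095, 3248, 3360 and 4690 in controls (log2 change 1.68, SE 0.15, adjusted p = 1.56e-05). COL7A1, the anchoring fibril collagen, rose by 1.68 and COL6A3 by 0.47. Over all 23 collagen chains tested 7 rose, 0 fell (1 without estradiol 2 or control 1, 2 without control 4) and the median was 0.068. The enzymes and chaperones that finish collagen rose in 13 of 26 (median 0.47), with 1 lower (0 without estradiol 1, estradiol 2, estradiol 4, control 2, control 3 or control 4, 2 without estradiol 3). LOXL2, which cross-links collagen, had 1806, 952, 1082 and 1478 with estradiol and 296, 227, 296 and 206 in controls, 5.02-fold higher (log2 change 2.33, SE 0.21, adjusted p = 1.63e-05). PCOLCE, which speeds the trimming of procollagen, had 2219, 1599, 1265 and 1309 with estradiol against 328, 263, 335 and 325 in controls (log2 change 2.30, SE 0.21, adjusted p = 1.66e-05). The collagen chaperone gene SERPINH1 rose by 1.43, the prolyl hydroxylase gene P4HA2 by 1.37 and the lysyl hydroxylase gene PLOD1 by 1.30, though the other probe sets of PLOD1 were at -0.12, -0.23 and -0.11.

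Matrix glycoproteins and proteoglycans rose in 13 of 48 and fell in 3 (1 without estradiol 1, estradiol 2, estradiol 4, control 1 or control 3, 9 without estradiol 3; median 0.19). TNC, or tenascin-C, a protein of remodelling stroma, had 1757, 2256, 742 and 2097 with estradiol and 112, 148, 189 and 173 in controls, 10-fold higher (log2 change 3.33, SE 0.40, adjusted p = 8.47e-05). SDC1, a cell surface proteoglycan, had 769, 768, 431 and 875 with estradiol against 96.7, 211, 122 and 104 in controls (log2 change 2.39, SE 0.28, adjusted p = 6.4e-05), and VCAN, or versican, rose through all 5 of its probe sets, the brightest by 1.75. The laminin gene LAMB2 fell by 0.62. Among matrix proteases 7 of 29 genes rose (4 without estradiol 2) and 4 fell (2 without estradiol 2, estradiol 4 or control 1; median -0.053). MMP11, or stromelysin 3, had 6356, 3785, 1959 and 7302 with estradiol and 887, 403, 1364 and 366 in controls (log2 change 2.72, SE 0.42, adjusted p = 0.000427), where estradiol 3 came closest to control 3. ADAMTS4, an aggrecanase, rose by 1.89, with a dimmer probe set at 0.33, and ADAM12 by 2.84. The cathepsin gene CTSL fell by 0.93, and RECK, an inhibitor of matrix proteases, fell by 0.79 through its brightest probe set but was at 1.32 through the other, which was also called.

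Genes of endometrial stroma fibroblasts rose in 13 of 21 and fell in 2 (1 without estradiol 1, estradiol 2, control 1 or control 4, 0 without estradiol 4 or control 2), with a median of 0.80. MME, the gene of the stroma antigen CD10, had 1204, 1985, 1188 and 2861 with estradiol and 256, 151, 318 and 91.2 in controls (log2 change 3.17, SE 0.43, adjusted p = 0.000188); its dimmer probe set stood at -0.067. ECM1 rose by 1.80. Decidual genes, which progesterone raises when the stroma prepares for an embryo, did not move one way, with 3 of 12 higher and 2 lower (median -0.33). HAND2, a stromal factor of progesterone action in mice, rose by 0.80, and VCAM1, an adhesion molecule, by 0.93. PRLR, the prolactin receptor gene, fell to 187, 161, 427 and 81.4 with estradiol, against 660, 541, 556 and 849 in controls (log2 change -1.80, SE 0.42, adjusted p = 0.00627), and IGFBP1, a classical decidual product, to 14.5, 2.41, 110 and 11.6 with estradiol, against 127, 254, 166 and 97.6 in controls (log2 change -2.79, SE 0.69, adjusted p = 0.0084; log2 change -3.57 without estradiol 3). For IGFBP1 the groups overlapped, as estradiol 3 lay above control 4.

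Smooth muscle genes turned on the muscle-poor array. With all arrays the median of 21 genes was -0.63, with 1 higher and 3 lower; without estradiol 4 the median was 0.16, with 3 higher and 2 lower. ACTG2, an actin of visceral muscle taken from the markers after its values were seen, had 10818, 11269, 10478 and 123 with estradiol and 5214, 5827, 5543 and 5485 in controls. It was thus higher in estradiol 1, 2 and 3 than in every control and far below them in estradiol 4, and did not pass (log2 change -0.63, SE 1.02, adjusted p = 0.699), while without estradiol 4 it did (adjusted p = 0.0062 without estradiol 4); its other probe set was at 0.26.

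Vessel genes fell in part. Endothelial genes were lower in 12 of 30 (7 without estradiol 1 or estradiol 4), against 13.2% of all genes, and higher in 3, with a median of -0.39. EMCN, a sialomucin of capillaries and veins, fell to 652, 525, 660 and 420 with estradiol, against 1105, 1189, 918 and 1339 in controls (log2 change -1.02, SE 0.18, adjusted p = 0.00128). TIE1, a receptor of endothelial cells, had 390, 386, 563 and 372 with estradiol and 680, 757, 668 and 669 in controls (log2 change -0.71, SE 0.16, adjusted p = 0.00527), and VWF, the clotting factor made in them, had 706, 848, 1092 and 656 with estradiol and 1327, 1644, 1588 and 1910 in controls (log2 change -0.98, SE 0.23, adjusted p = 0.00619). In all 3 genes estradiol 4 was lowest and estradiol 3 highest of its group, below every control. With the mean of its probe sets VWF changed by -0.80 and did not pass limma's test (adjusted p = 0.0518). The rises were SOX17 and SOX7, at 1.79 and 1.24, both also active outside vessels, and CLEC14A at 0.77 (adjusted p = 0.0522 to 0.109 without estradiol 1, estradiol 2, estradiol 4, control 2, control 3 or control 4). The vessel growth ligand gene PGF rose by 1.48 and EFNB2, an arterial ephrin, by 0.76, among 4 of 18 pericyte and vessel growth genes that rose and 2 that fell (4 without estradiol 3; median 0.13).

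Genes of lipid uptake by capillaries and fat cells fell in 5 of 15 (3 without estradiol 4, control 1, control 2 or control 3; median -0.44) and rose in 1 (0 without estradiol 2 or control 1). GPIHBP1, which anchors lipoprotein lipase to the capillary wall, had signals of 23.8, 25.5, 44.2 and 33.5 with estradiol and 134, 197, 209 and 268 in controls, 5.63-fold lower (log2 change -2.49, SE 0.30, adjusted p = 8.47e-05), with no overlap. CD36, a fatty acid transporter of the same cells, had 571, 333, 566 and 177 with estradiol and 1052, 1127, 1115 and 1631 in controls (log2 change -1.69, SE 0.39, adjusted p = 0.00584), lowest in estradiol 4. CAVIN2, a protein of caveolae, fell by 0.74. The 2 tested fat cell markers were not called, with sums of 591 to 735 with estradiol and 646 to 744 in controls.

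Immune lists differed. T and NK cell genes were called higher in 0 (1 without control 4) and lower in 2 of 22 (1 without estradiol 1, estradiol 2, control 2 or control 4, 4 without estradiol 3; median -0.29), and macrophage and dendritic cell genes were higher in 0 (1 without control 2) and lower in 1 of 23 (0 without estradiol 2, estradiol 4 or control 3; median -0.19), with both counts under the 13.2% of all genes. Mast cell, eosinophil and neutrophil genes went both ways, with 4 of 8 above 0 and a median of -0.29. The 4 called lower were GATA2, FCER1A, CCL11 and CPA3, the mast cell marker given above (2 without estradiol 4, control 1 or control 2). The 1 called higher was the receptor gene KIT (0 without estradiol 1, estradiol 4, control 1 or control 4). FCER1A, the IgE receptor chain of mast cells, had 54.6, 59.8, 69.4 and 8.99 with estradiol and 172, 253, 151 and 117 in controls (log2 change -1.95, SE 0.45, adjusted p = 0.00549), and CCL11, or eotaxin, which attracts eosinophils, had 102, 51.6, 687 and 19.2 with estradiol and 1268, 1360, 811 and 1143 in controls (log2 change -3.50, SE 1.07, adjusted p = 0.0261; adjusted p = 0.0509 to 0.0781 without estradiol 1, estradiol 2, estradiol 4, control 1, control 2 or control 4 and log2 change -4.43 without estradiol 3). Both were lowest in estradiol 4, and CCL11 in estradiol 3 came near control 3. Antigen presentation fell in 5 of 14 (3 without estradiol 2, estradiol 4 or control 4; median -0.16) and rose in 0 (1 without estradiol 3, 2 without control 2); the class II gene MAMU-DRA, the macaque HLA-DRA, had 2682, 2166, 4361 and 1721 with estradiol against 4502, 5601, 5041 and 5730 in controls (log2 change -1.01, SE 0.26, adjusted p = 0.0105). Type I interferon genes fell in 5 of 29 (3 without estradiol 2 or control 2), or 17.2%, against 13.2% of all genes, and rose in 2 (median -0.21). IFIT1, an interferon-induced antiviral gene, fell by 1.36, while the 2 that rose were its relative IFIT2 and LGALS3BP. CD55, which shields cells from complement, fell to 483, 284, 347 and 319 with estradiol, against 1669, 1112, 1907 and 781 in controls (log2 change -1.86, SE 0.32, adjusted p = 0.000918); its other probe sets were at -1.48, -1.28, -1.10 and 0.39. The cytokine gene IL1A rose by 2.45, among 4 of 33 chemokine and cytokine genes that rose (2 without estradiol 1, estradiol 4, control 1, control 2 or control 4) and 5 that fell (3 without estradiol 1, estradiol 2, estradiol 4 or control 2, 8 without estradiol 3; median -0.27).

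**Figure D5:**
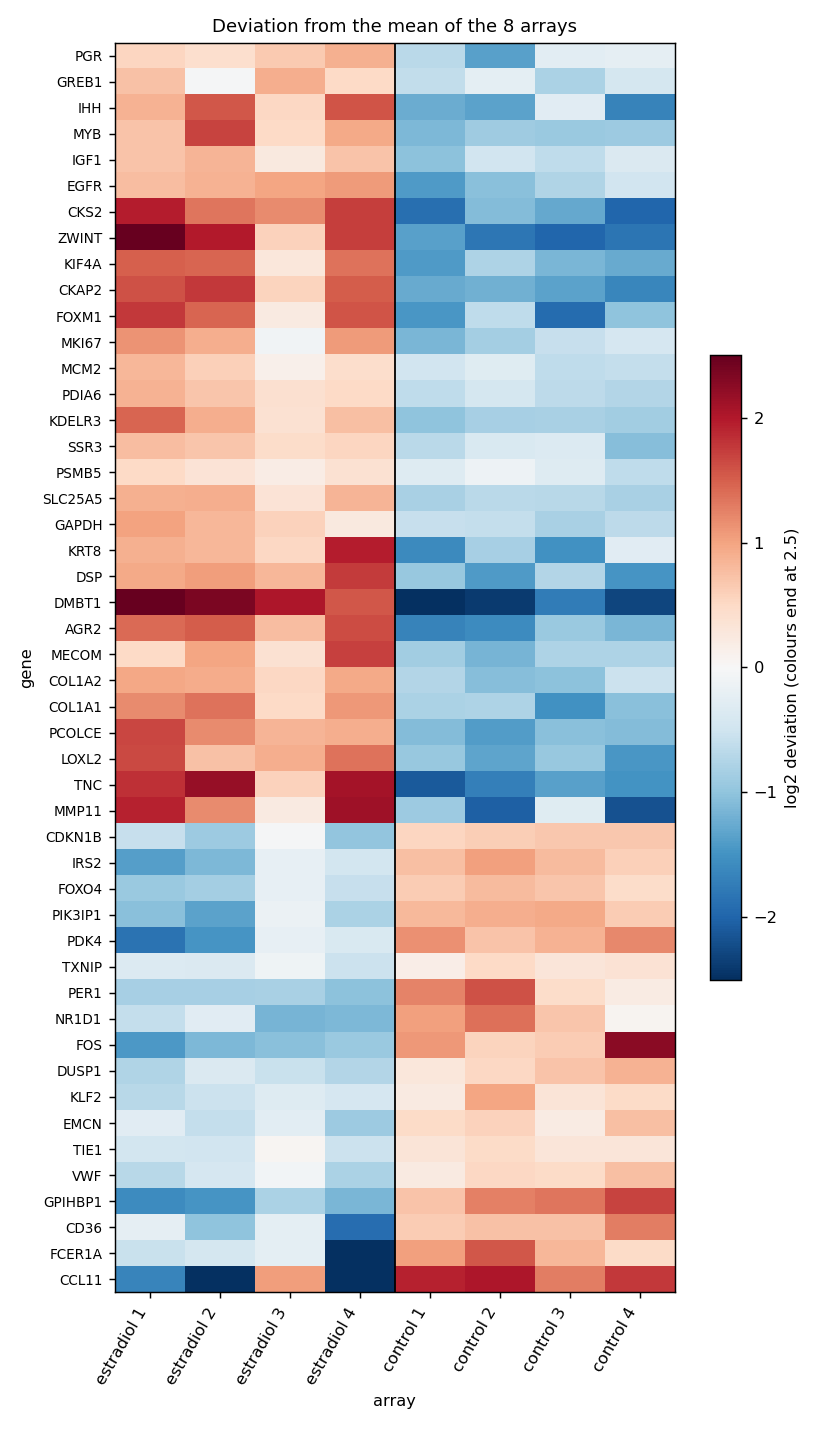
Deviation of the log2 signal of 48 genes from their mean over the 8 arrays, with estradiol arrays left of the line and control arrays right of it; red is higher and blue lower. Estradiol 3 is the palest of its group for the 7 cell division genes from CKS2 to MCM2, and the 7 genes from EMCN to CCL11 are lowest in estradiol 4 except GPIHBP1.

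Counts of the remaining lists stand against 16.5% of all genes higher and 13.2% lower. Of 16 genes of the FGF, HGF, PDGF and KIT axis 2 rose (1 without estradiol 1, estradiol 4, control 1 or control 4), with a median of 0.093. Another 2 fell (1 without estradiol 1, estradiol 2, control 1 or control 4, 4 without control 3). The rises were KIT and SPRY4, a brake on these receptors, at 1.34, and the falls were PDGFC and SPRY1, a relative of SPRY4. Of 16 genes of repair by recombination 3 rose (1 without estradiol 1, estradiol 2, control 1, control 3 or control 4) and 1 fell (median 0.018), with CHEK1, the checkpoint kinase, at 1.62. Antioxidant genes rose in 6 of 17 and fell in 2 (4 without control 3; median 0.042), the peroxiredoxin gene PRDX4 by 0.61, while the catalase gene CAT fell by 0.98. Fatty acid synthesis rose in 4 of 15 (2 without estradiol 2 or control 4) and fell in 1 (median 0.24), with ACLY, which makes its substrate, at 0.64. Complement and coagulation genes rose in 2 and fell in 2 (median -0.28) of 18. Nerve and Schwann cell genes rose in 1 of 10, NEFH, a neurofilament gene, at 3.22. The 4 tested prostaglandin genes held no called gene in limma's test, with 1 at an unadjusted p below 0.05 (1 rose without estradiol 1), and neither did the 2 blood cell genes, with 0 at an unadjusted p below 0.05 (1 fell without estradiol 3). Of 7 steroid metabolism genes 1 rose (0 without estradiol 2, estradiol 4, control 2 or control 4) and 0 fell (median 0.17), and of 7 B and plasma cell genes 2 rose and 0 fell (median 0.13). Of 6 lymph vessel genes 1 rose (0 without estradiol 1, estradiol 2, estradiol 4, control 3 or control 4) and 1 fell (0 without estradiol 1, estradiol 2, estradiol 4, control 1, control 2 or control 4, 2 without estradiol 3; median -0.18).

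Set against tamoxifen, the other single drug, estradiol gave few differences that passed limma's test. Of 10705 genes 60 were higher with estradiol (0.56%) and 16 lower (0.149%). MKI67 was higher than with tamoxifen by 1.57 on the log2 scale (adjusted p = 0.0289), MCM2 by 0.79 (adjusted p = 0.0289) and LOXL2 by 1.23 (adjusted p = 0.0289). Of the mitosis list 8 of 32 genes were higher than with tamoxifen, and of the collagen modification list 3 of 26. PGR, at 0.41 (adjusted p = 0.475), and IGF1, at 0.0039 (adjusted p = 0.995), did not pass. These calls rest on single arrays, and no gene was higher without estradiol 1. Leaving out estradiol 1, 2, 3 or 4 gave 0, 17, 205 and 3 genes higher and 0, 14, 74 and 1 lower, and leaving out tamoxifen 1, 2, 3 or 4 gave 113, 1, 1 and 13 higher and 31, 1, 1 and 7 lower.

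Some of the brightest probe sets were also called. APOD, a secreted carrier of small lipids, had 9557, 9900, 7548 and 11602 with estradiol and 3753, 3438, 5932 and 6071 in controls (log2 change 1.04, SE 0.20, adjusted p = 0.00185), highest in estradiol 4. H19, an imprinted gene whose RNA is not translated, had 9743, 7673, 6822 and 8943 with estradiol against 3828, 5893, 5903 and 4278 in controls (log2 change 0.75, SE 0.17, adjusted p = 0.00424), and its 2 other probe sets rose by 0.97 and 1.33. HSPA8, a chaperone present in most cells, rose by 0.40, with the others at 0.90 and 0.93. The groups did not overlap in any of the 3.

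Probe sets of one gene served as a check within the arrays. Of 4576 genes with 2 or more tested probe sets, 1498 were called through the brightest; in 1278 of these the second-brightest had the same sign, in 723 it was called the same way and in 25 the other way. The gene called higher through the most probe sets was CCT2, a subunit of the chaperonin that folds actin and tubulin, with 8 and a brightest change of 0.56, and the gene called lower through the most was LUC7L3, a splicing factor, with 6 and -0.36. In 58 genes called probe sets went both ways. Examples are GPR137B (0.59 through the brightest and -1.13 and -0.42 through the others), MTMR3 (0.51 and 0.38, -0.48, 0.45, 0.79, -0.22, -0.31 and -0.17), NDUFS6 (0.77 and -0.54 and -0.064) and RCAN2 (-1.09 and 1.42). For such genes the direction depends on the probe set taken. The ribosomal protein genes RPS6 and RPL35A, which were among the 8 called falls of highest signal, changed by -0.22 (adjusted p = 0.055 to 0.123 without estradiol 1, estradiol 2, estradiol 3, estradiol 4, control 2, control 3 or control 4) and -0.26 (adjusted p = 0.0626 and 0.055 without estradiol 1 or control 2), and after quantile normalization by 0.017 and -0.045, neither of them called.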

How the data were processed

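RNA of 16 endometrium samples, 4 for each group, was hybridised to 1 array a sample. The deposited values are linear MAS5 signals, a measure of intensity, and per the submitters' processing notes GCOS, Affymetrix Expression Console and MAS5 were used. Deposited signals ran between 0.0242 and 23401 over the 16 arrays, and the median signals of the 8 estradiol and control arrays were 58.7 to 70.3. Of the 52865 probe sets in the deposited file, 99 were array controls and were left out. By the platform's annotation 24956 probe sets had 1 symbol, 361 had several and 27449 had none; those with several or none were tested but not named.

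From the deposited intensities, log2(signal + 4.80) was computed, the pseudocount being the 10th percentile of all values. Probe sets in the dimmest 40%, by mean over the 16 arrays, were left out, which left 31659 with a mean above 5.36. A probe set under this cut in 1 group could thus be tested through brighter arrays of another group. Beside the mitosis genes given above, examples are the control means of NEFH (4.97), GCNT3 (4.57), IL1A (4.65), MCM10 (4.94) and CHEK1 (5.15). Among genes that fell, the estradiol means of IGFBP1 (4.50) and GPIHBP1 (5.16) were under it. A model with 1 mean for each group was fitted with limma 3.58.1 in R 4.3.3 to all 16 arrays (12 residual degrees of freedom, 3.48 prior degrees of freedom), with moderated variances that follow a trend in signal, and p-values were adjusted by Benjamini and Hochberg's method over all 31659 probe sets at a threshold of 0.05. The 12 degrees of freedom rest on a spread shared by the 4 groups. Samples were grouped by their titles. Tested on simulated data for the estradiol and control comparison, with 200 of 31659 probe sets changed, the fit recovered 64% of those changed by 1 on the log2 scale and 88% of those changed by 2, with 7 false calls. The simulated noise was normal and independent between probe sets, with no outlying array. In the real data 25.5% of probe sets passed, so these rates need not hold there.

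Members and gene lists (64, from general knowledge of their functions) were chosen with earlier results of these data known. Genes named are: the 10 higher and 10 lower of smallest p whose groups do not overlap; the 8 called higher and 8 called lower of highest signal; up to 5 called higher and 5 called lower in each list; up to 6 called through the most probe sets, and up to 6 with called probe sets in opposite directions; and ESR1, ESR2, PGR, GREB1, IGF1, MKI67 and TFF3, with 1 further gene that is not reported here. Not every gene that the rule allows is described. Alternatives were pseudocounts of 1 and 16, no filter or a 60% filter on dim probe sets, only the 8 arrays, a replicate block, quantile normalization, other variance settings, array weights, adjustment over named probe sets only, the mean of a gene's probe sets, and leaving out each array in turn. Leaving out estradiol 4 together with control 2, and each tamoxifen array, was chosen after seeing the data. No genome or sequence table of the array's build was used here, so no positions or sequences are given.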

Additional observations from a re-analysis of the deposited data

Results flagged for a closer look

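In each group of 4 arrays the gap between the highest or lowest array and its nearest neighbour was divided by the group's range, for all 188 genes named, and 23 of 376 groups were above Dixon's critical value at the 95% level. Chance alone gives about 1 in 20. Estradiol 3 stood apart in 7 of them. It was the lowest of its group for E2F2 (0.977), GPR137B (0.963), MCM10 (0.895), SLC25A5 (0.895), KIF4A (0.889) and COL1A2 (0.88), and the highest for TIE1 (0.883). For E2F2 its log2 value was 6.32, against 6.98 to 6.99 in the other estradiol arrays.

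Estradiol 4 stood apart in 5: it was lowest for ACTG2 (0.984), for PER1 (0.907), for FCER1A (0.868) and for CPA3 (0.843), and highest for AGR3 (0.856).

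Among controls, control 1 was lowest for RPN2 (0.88) and MYB (0.86). Control 2 was highest for CTSL (0.879), RPL35A (0.861) and TIE1 (0.853), and lowest for PCOLCE (0.868). Control 3 was highest for GPR137B (0.902) and AGR3 (0.878) and lowest for NCOA2 (0.869). Control 4 was highest for ABTB1 (0.85) and CD36 (0.843).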

How the results depend on the processing

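The total counts of probe sets and genes called between estradiol and control stayed within 1.5 times under the alternatives run. Genes called higher ranged from 1345 to 1998 and genes called lower from 990 to 1553 over all of them, leaving out single arrays included. Of the 184 called genes named, 157 passed in every fit that tested them, 12 missed the threshold without at least 1 array and 27 under at least 1 other alternative. The sign turned with the mean of a gene's probe sets for GPR137B (-0.32), PTTG1 (0.38), RCAN2 (0.17) and RECK (0.27), whose probe sets go both ways, and with quantile normalization for RPS6 (0.017), where the cause was not tested. Of 128 counts of genes higher or lower in the 64 lists, 59 moved by over 1.5 times when a choice other than 1 array was changed, 11 of them counts of 7 or more. With the dimmest 60% of probe sets left out, so that fewer genes were tested, the counts of higher genes were 5 for mitosis (18 as reported), 6 for replication (10), 5 for G1 (8) and 2 for centromere genes (7). In that fit 1606 genes in all were higher, against 1766. With only the 8 arrays the counts of higher genes were 8 for oxidative phosphorylation (14), 8 for ribosome making (13), and 4 each for apoptosis, cholesterol and centromere genes (7 each), with fewer samples to estimate the spread. There 1345 of all 10705 genes were higher. Without estradiol 4 and control 2, endothelium had 5 of 30 lower (12), junctions 6 of 24 higher (11), keratins 5 of 17 (8), G1 5 of 19 and centromere 3 of 15. Over all 10703 genes of that fit 13.8% were higher and 10% lower. Antigen presentation there had 1 of 14 lower (5) and 1 higher (0). Among the called falls, MAMU-DRA, HOXC6 and IGFBP1 missed the threshold of limma's test in that fit (adjusted p = 0.0603, 0.0625 and 0.0502). Cholesterol genes also had 4 with no filter and with a replicate block.

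The counts against tamoxifen, 60 higher and 16 lower, were 211 and 83 with array weights, 7 and 7 without estradiol 4 and control 2, 0 to 205 and 0 to 74 without 1 estradiol or control array, and 1 to 113 and 1 to 31 without 1 tamoxifen array; the cause was not tested beyond the arrays named.

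With a replicate block 1648 genes were higher and 1267 lower than in controls, and 58 higher and 14 lower than with tamoxifen. Correlations of the deviations of same-numbered estradiol and control arrays were -0.0402 to 0.071, and 1 of 4 estradiol arrays and 2 of 4 control arrays correlated best with the array of the same number in the other group, so the numbers were not taken to pair the samples. Limits are the 4 arrays in each group, probes designed for another macaque species, whole tissue of varying muscle content, and the dimmest 40% of probe sets, which were not tested.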
